A study of Caenorhabditis elegans with 10 samples.

Results

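The genes described here are the C-type lectin domain genes of Caenorhabditis elegans that carry the symbol clec- and a number. A gene was kept if it was protein-coding and had at least 10 counts in at least 5 of the 10 RNA-seq libraries, and 124 of the 240 listed clec genes met this rule. The rule did not use the difference between the strains, and no gene entered on the libraries of 1 strain alone. Proteins with a C-type lectin-like domain share a fold that in many animals binds sugars, and C. elegans has a large family of them. Many clec proteins are predicted to be secreted, several clec genes are expressed in the intestine, and the levels of many change when worms meet pathogenic bacteria, so the family is best known in this animal from studies of innate defense. For most of its members no function has been assigned.

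RNA was sequenced from whole early L1 hermaphrodites of 2 strains, with 5 libraries each, numbered 1, 4, 5, 6 and 7. RA678, called pbrm-1(TS-KO) or TS-KO, carried the GFP-tagged, loxP-flanked allele pbrm-1(rd31[pbrm-1::GFP(flox)]) with rdIs74, a single-copy transgene from whose hnd-1 promoter a GFP nanobody joined to ZIF-1 and the recombinase Cre are made. Together they remove PBRM-1, a subunit of the PBAF chromatin remodeling complex, by protein degradation and by recombination. RA685, called pbrm-1(control) or control, carried the same pbrm-1 allele with rdIs79, in which hnd-1p drives ZIF-1 without Cre and without the nanobody. Both strains carried an unc-119 mutation rescued by their transgene, and all larvae hatched overnight in M9 medium without food. The paper describes the hnd-1 promoter as active in mesodermal lineages and does not name the endodermal intestine among the affected cells. A small share of TS-KO larvae lacked the tagged protein in every cell. Populations of both strains were reared and collected in parallel under 1 number, on a different day for each number.

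Library totals were 35922561 to 46553938 counts in TS-KO and 36354418 to 45126931 counts in control. pbrm-1 itself lay at 233 to 265 CPM (read counts scaled to a common library size) in TS-KO and at 224 to 286 CPM in control (log2 fold change of -0.09, adjusted p = 0.433), as counted over the whole gene in whole larvae. The paper also found no change by whole-gene counts. At the level of exons it reported lower expression in TS-KO for most of the exons that Cre removes. Markers of intestine, hypodermis, body wall muscle, pharynx, neurons, coelomocytes and germline were all detected, while 5 adult yolk and sperm genes summed to 2.48 to 4.25 CPM in TS-KO and to 2.46 to 3.67 CPM in control. Control replicate 5 stood apart in hypodermal markers: 6 of them summed to 839 CPM there, to 105 to 239 CPM in the other control libraries and to 102 to 125 CPM in TS-KO. The sum in control replicate 5 was carried by 3 of the 6, sqt-3 (596 CPM there, against 21.7 to 156 CPM in the other control libraries), dpy-10 (91.9 against 3.17 to 8.18 CPM) and dpy-7 (67.5 against 1.75 to 6.18 CPM). lin-26 was slightly above the others (81.5 against 64.1 to 77.3 CPM), and rol-6 and dpy-13 lay within their range. In whole larvae, fewer cells of a type and less RNA per cell cannot be told apart.

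Of the 124 clec genes, 105 reached 10 counts in all 10 libraries, and all but 2 passed the filter on low counts of the test. These 2, clec-210 and clec-232, averaged 0.179 and 0.259 CPM over all libraries. Just inside the count rule, with 5 libraries at 10 counts or more, lay clec-20, clec-38, clec-140, clec-210 and clec-261. Just outside, with 4 such libraries, lay clec-230 with 27 counts in all TS-KO libraries against 145 in all control libraries, clec-174 with 47 against 60, and clec-2 with 43 against 39. Among the 116 clec genes below the rule, 90 reached 10 counts in no library and 11 had no count at all. The genes below the rule include some with a known part in defense, such as clec-60 and clec-70, which S. aureus induces (28 and 21 counts in TS-KO, 25 and 12 in control), and clec-39, needed for resistance to Serratia marcescens (33 counts in TS-KO, 38 in control).

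A few clec genes supplied most of the family's transcripts. The summed level of the 124 genes was 3413 ± 69.4 CPM in TS-KO and 4194 ± 242 CPM in control (SD, n = 5 each), and the strains did not overlap, with 3304 to 3476 CPM in TS-KO and 3895 to 4468 CPM in control. clec-63 alone made up 39.4% of the sum, and the 5 genes with the highest mean, clec-63, clec-50, clec-65, clec-1 and clec-17, made up 62.3%. Without clec-63 the sum was 2083 ± 44.9 CPM in TS-KO and 2528 ± 147 CPM in control. Per kilobase of exon, clec-63 stood at 1155 CPM per kb over all libraries, followed by clec-1 at 276, clec-50 at 275, clec-146 at 231, clec-65 at 185 and clec-17 at 118 CPM per kb. At the low end, clec-140 stood at 0.0944 CPM per kb. It shares up to 474 exon bases with hmg-11 on the same strand, so its level is uncertain.

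The comparison of the strains asks which genes differed between larvae that lost PBRM-1 in mesodermal cells and control larvae. Each genotype is a single strain, and its libraries are cultures of that strain. The strains also differ in Cre, in the nanobody and in the transgene insertion. Effects of these, of strain background and of larvae without the protein in every cell cannot be told apart from mesodermal loss of PBRM-1. Among the clec genes the changes ran mostly downward: 22 of those tested fell in TS-KO and 5 rose (edgeR quasi-likelihood test, adjusted p of at most 0.05 over all genes tested, the rule behind every call of a fall or a rise). Of all 16817 genes tested, 4.28% fell and 3.44% rose, or 7.72% in all, against 18%, 4.1% and 22.1% of the clec genes. The median log2 fold change of the clec genes was -0.18, with quartiles of -0.48 and 0.12, and 76 of them, or 62.3%, lay below 0. Over all genes the median was 0.00045, with quartiles of -0.14 and 0.13, and 49.9% lay below 0. The falls ranged from 0.24 to 2.35 on the log2 scale and the rises from 0.32 to 1.45. Falls of at least 2-fold were seen in 7 genes and rises of at least 2-fold in 2. The share of all genes at that limit was not computed, so these counts only describe the clec genes. Without control replicate 5, 23 clec genes fell and 4 rose, against 3.22% and 2.11% of all genes (5.33% in all), and without both libraries of replicate 6 the changed clec genes numbered 16, against 2.42% of all genes.

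**Figure D1:**
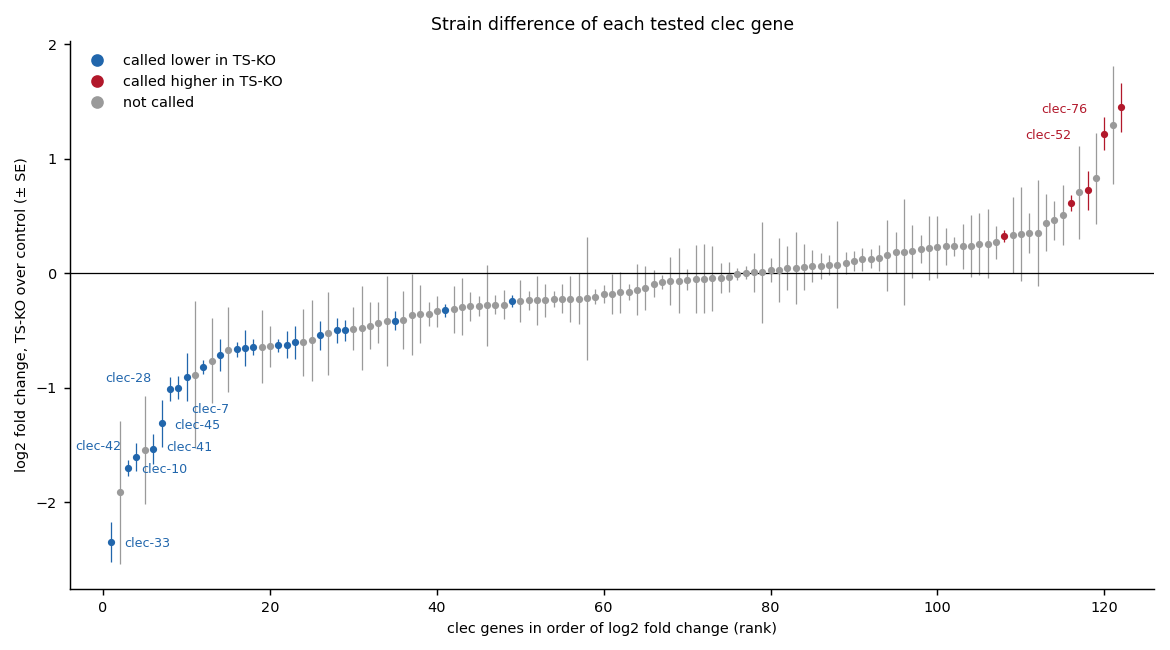
Log2 fold change of TS-KO over control, with its approximate standard error, for all clec genes tested, in rank order. Blue points are the 22 genes that fell, red points the 5 that rose and grey points the 95 that did not pass the test, with more points below 0 (76) than above (46).

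The share of changed genes differed with the level of the gene. Of the 30 clec genes under 1 CPM, none fell and clec-115 rose, or 3.33% against 4.27% of all genes at that level. Of 54 genes at 1 to 10 CPM, 9 fell and 1 rose (18.5% against 6.89%). Of 32 genes at 10 to 100 CPM, 11 fell and 3 rose (43.8% against 8.35%). Of 6 genes at 100 CPM or more, clec-63 and clec-50 fell (33.3% against 13.4%).

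The largest fall was that of clec-33, a gene of 10 exons on chromosome V (16867678 to 16869840, WBcel235). It stood at 0.447, 0.480, 0.837, 0.480 and 0.686 CPM in TS-KO replicates 1, 4, 5, 6 and 7, against 3.17, 3.06, 2.70, 3.04 and 2.95 CPM in the control replicates. The strains did not overlap, and the highest TS-KO library lay far below the lowest control library (log2 fold change of -2.35 ± 0.17 SE, adjusted p = 2.36e-05 by edgeR). clec-10, on chromosome II (402678 to 404180), had the smallest adjusted p of the family. Its levels were 8.77, 7.94, 7.16, 8.26 and 7.75 CPM in TS-KO, against 27.1, 26.2, 23.2, 25.6 and 27.3 CPM in control, a tight cluster in each strain (log2 fold change of -1.70 ± 0.07 SE, adjusted p = 7.34e-07 by edgeR).

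clec-41 and clec-42, whose proteins are described as antimicrobial toward Bacillus thuringiensis, fell by a like amount. They lie apart on chromosome V (13134903 to 13138101 and 18191412 to 18194168), have 3 exons each, and encode proteins of 545 and 555 amino acids. clec-42 stood at 29.5, 19.4, 26.7, 26.9 and 21 CPM in TS-KO, against 78.4, 61.2, 75, 79.2 and 81.2 CPM in control (log2 fold change of -1.60 ± 0.12 SE, adjusted p = 2.4e-05 by edgeR). clec-41 stood at 29.1, 22.6, 28.1, 26.6 and 24.1 CPM in TS-KO, against 86.8, 52.5, 78.6, 83.6 and 76.3 CPM in control (log2 fold change of -1.53 ± 0.13 SE, adjusted p = 4.82e-05 by edgeR). For both genes the replicate 4 library was the lowest of its strain in TS-KO and in control. The mean of TS-KO was 32.9% of the control mean for clec-42 and 34.5% for clec-41. clec-225 and clec-246, their nearest tested clec neighbours within 10 kb, had log2 fold changes of 0.05 ± 0.20 and 0.18 ± 0.46 SE and did not pass the test.

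3 more genes fell at least 2-fold. clec-7, on chromosome V (7328392 to 7330002), averaged 30.5 ± 2.89 CPM in TS-KO and 61.0 ± 8.08 CPM in control (SD, n = 5 each), with 26.2 to 33.2 CPM in TS-KO and 48.4 to 70.5 CPM in control. clec-45, a short gene of 2 exons that encodes 155 amino acids, averaged 1.42 ± 0.372 CPM in TS-KO and 3.55 ± 0.795 CPM in control. Its highest TS-KO library, at 2.03 CPM, lay just under its lowest control library, at 2.29 CPM. clec-28, the neighbour of clec-33, averaged 2.63 ± 0.253 CPM in TS-KO and 5.32 ± 0.562 CPM in control. The adjusted p-values of edgeR were 0.000167 for clec-7, 0.00376 for clec-45 and 0.000255 for clec-28.

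The next 9 falls by size ran from 0.91 to 0.60 on the log2 scale. clec-66, on chromosome II, averaged 23.1 ± 1.56 CPM in TS-KO and 40.8 ± 2.5 CPM in control, with an adjusted p of 2.4e-05 by edgeR. clec-149, on chromosome III, averaged 11.7 ± 1.02 CPM in TS-KO and 18.5 ± 0.618 CPM in control. clec-265, on the X chromosome, averaged 25.5 ± 2.12 CPM in TS-KO and 39.8 ± 2.80 CPM in control. In each of these 3 genes every TS-KO library lay below every control library. clec-83 averaged 26.7 ± 1.47 CPM in TS-KO and 41.3 ± 2.38 CPM in control, again without overlap. The other 5 genes of this range, clec-4, clec-89, clec-26, clec-198 and clec-24, averaged 2.34 to 4.22 CPM in TS-KO and 3.56 to 7.89 CPM in control. The calls of clec-4, clec-26 and clec-24 lay near the threshold and were lost without some libraries, while the log2 fold changes moved little. clec-4 did not pass the test without TS-KO replicate 4 or 6 (log2 fold changes of -0.81 and -0.91, adjusted p = 0.0528 and 0.0558). clec-26 did not pass without any 1 of TS-KO replicates 4 and 7 and control replicates 1, 4, 6 and 7 (log2 fold changes of -0.66 to -0.55, adjusted p of 0.0505 to 0.0608). clec-24 did not pass without any 1 of TS-KO replicates 5, 6 and 7 and control replicates 4, 6 and 7 (log2 fold changes of -0.62 to -0.52, adjusted p of 0.0515 to 0.0786, edgeR). Leaving out both libraries of 1 number ended the call of clec-26 in all 5 fits, of clec-24 in 4 and of clec-4 in 3. The adjusted p there was 0.0521 to 0.127 (edgeR).

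The remaining falls were smaller, and several were in abundant genes. clec-63, the most abundant clec gene, stood at 1360, 1370, 1230, 1320 and 1380 CPM in TS-KO, against 1540, 1630, 1560, 1760 and 1840 CPM in control. The TS-KO libraries lay below all control libraries, and the TS-KO mean of 1331 ± 62.9 CPM was 79.9% of the control mean of 1665 ± 130 CPM (log2 fold change of -0.32 ± 0.06 SE, adjusted p = 0.00696 by edgeR). Without both libraries of replicate 6 its adjusted p was 0.066. clec-50 averaged 265 ± 16 CPM in TS-KO and 313 ± 14.2 CPM in control (log2 fold change of -0.24 ± 0.05 SE, adjusted p = 0.0150), and did not pass the test without TS-KO replicate 5 (adjusted p = 0.0506, edgeR). Its call was also lost without both libraries of replicate 4, 5, 6 or 7 (adjusted p of 0.0505 to 0.0922, edgeR). clec-67, known as a target of the p38 MAP kinase pathway of intestinal immunity, averaged 38.1 ± 5.61 CPM in TS-KO and 53.9 ± 5.79 CPM in control. It is 1 of 2 called genes whose strains overlapped, since TS-KO replicate 1 reached 45.4 CPM and control replicate 4 only 43.8 CPM. The other is clec-72, with 61.3 to 79.5 CPM in TS-KO and 78.2 to 108 CPM in control. clec-5 averaged 22.9 ± 2.71 CPM in TS-KO and 30.6 ± 2.08 CPM in control, without overlap. clec-86 averaged 4.07 ± 0.397 CPM in TS-KO and 5.93 ± 1.05 CPM in control. It shares up to 63 exon bases with alh-10 on the opposite strand, and its call ended without TS-KO replicate 4, 5 or 6 or control replicate 6 (adjusted p of 0.0585 to 0.0669, edgeR). The call also ended without both libraries of replicate 4, 5, 6 or 7 (adjusted p of 0.0632 to 0.142, edgeR).

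5 clec genes rose in TS-KO, and in all of them every TS-KO library lay above every control library. clec-76, on chromosome IV (3965246 to 3969193), had the largest rise. It stood at 26.6, 21.2, 27.8, 28 and 34.3 CPM in TS-KO, against 6.07, 15.2, 8.73, 8.87 and 11.7 CPM in control. The difference was smallest in replicate 4, at 0.48 on the log2 scale, and largest in replicate 1, at 2.12 (log2 fold change of 1.45 ± 0.21 SE, adjusted p = 0.0025 by edgeR). clec-52, which S. aureus is known to induce, stood at 15.3, 9.90, 10.3, 8.92 and 10.4 CPM in TS-KO, against 4.89, 5.53, 4.21, 4.43 and 4.47 CPM in control. TS-KO replicate 1 was the highest of its strain, and the other TS-KO libraries were still well above control (log2 fold change of 1.22 ± 0.14 SE, adjusted p = 0.000629 by edgeR).

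clec-57 averaged 14.1 ± 1.16 CPM in TS-KO and 9.26 ± 0.312 CPM in control (log2 fold change of 0.61 ± 0.07 SE, adjusted p = 0.000464 by edgeR). clec-150 averaged 103 ± 3.41 CPM in TS-KO and 82.4 ± 5.67 CPM in control, a rise of 0.32 ± 0.05 SE on the log2 scale (adjusted p = 0.00397 by edgeR). clec-115 was the least abundant, with 0.586 to 0.850 CPM in TS-KO and 0.328 to 0.505 CPM in control. Its call did not hold without TS-KO replicate 1, 4 or 5 or control replicate 4, 5 or 6 (adjusted p of 0.0531 to 0.066, edgeR). Nor did it hold without both libraries of any 1 number (adjusted p of 0.059 to 0.121, edgeR).

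**Figure D2:**
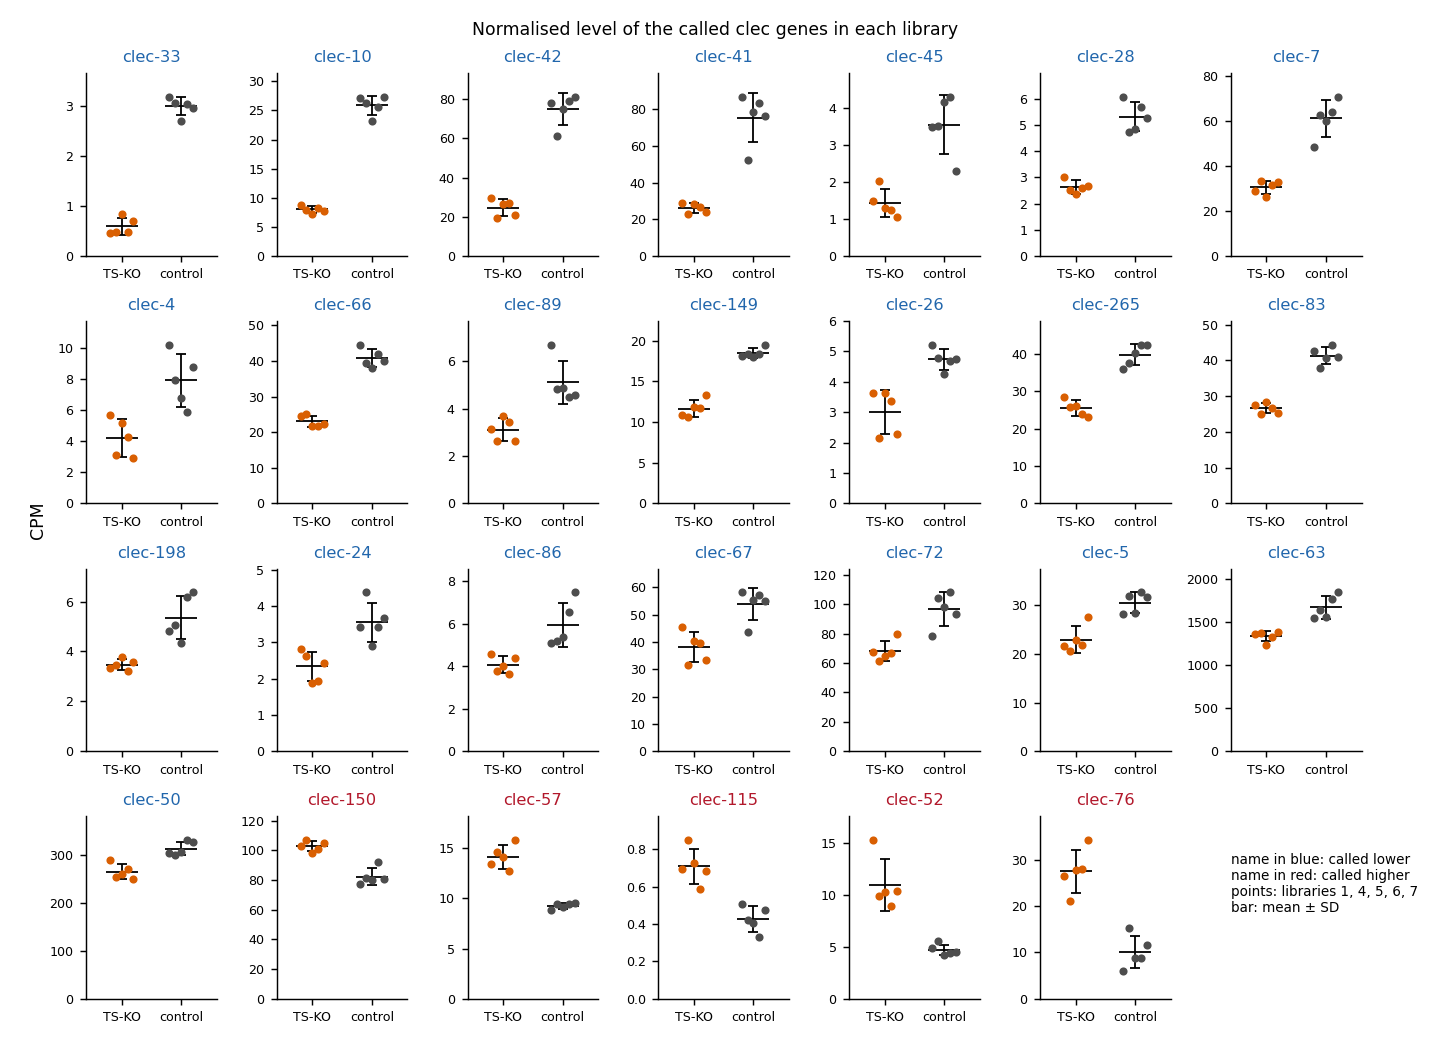
Normalised level (CPM, from 0) of each of the 27 changed clec genes in the 5 TS-KO libraries (orange, left) and the 5 control libraries (grey, right), with the mean and SD as bars. The strains are apart in 25 panels and overlap in those of clec-67 and clec-72.

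Over all clec genes tested, 23 had every TS-KO library below every control library, against 4.91% of all genes, and 5 had every TS-KO library above, against 4.35%. The 3 genes without overlap that did not pass the test were clec-12, clec-31 and clec-180, with log2 fold changes of -0.27, -0.28 and -1.55. The pairs of libraries with the same number gave the same direction for each changed gene: all 22 that fell were lower in TS-KO in 5 of 5 pairs, and all 5 that rose were higher in 5 of 5. These genes were called from the same libraries, so this agreement is a description and no separate evidence. In the family as a whole 39 genes were lower in all 5 pairs, against 13.8% of all genes, and 9 were higher in all 5, against 12.9%. The median difference of the clec genes was -0.13, -0.13, -0.12, -0.18 and -0.25 on the log2 scale in replicates 1, 4, 5, 6 and 7, while that of all genes lay between -0.02 and 0.01 in each.

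**Figure D3:**
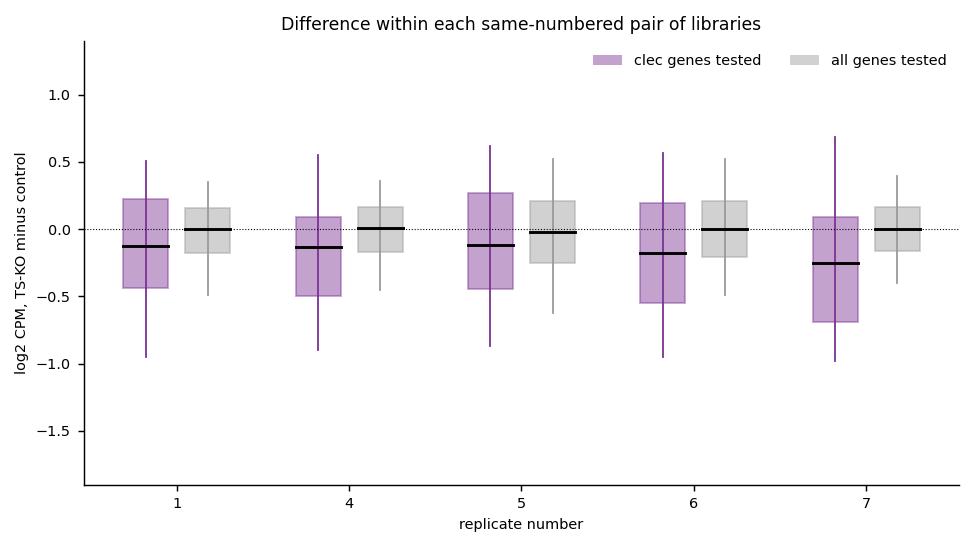
Difference in log2 CPM, TS-KO minus control, within each same-numbered pair of libraries, for all clec genes tested (purple) and all 16817 genes tested (grey). Boxes span the quartiles, black lines mark medians and thin lines the 10th to 90th percentiles, and the clec medians lie below 0 in all 5 pairs.

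Genes with a known or proposed part in defense did not all change. clec-49, which with clec-39 is needed for resistance to Serratia marcescens, averaged 18.5 ± 1.88 CPM in TS-KO and 21 ± 1.47 CPM in control (log2 fold change of -0.18 ± 0.08 SE, adjusted p = 0.173 by edgeR). clec-85, a p38 MAP kinase target like clec-67, stood at 54.3, 52.2, 46.8, 50.7 and 48.8 CPM in TS-KO, against 50, 49, 47.6, 54.8 and 52.6 CPM in control. Its libraries were interleaved between the strains (log2 fold change of -0.01 ± 0.06 SE, adjusted p = 0.959 by edgeR). Reads of clec-85 could also belong to Y54G2A.40, with which it shares up to 397 exon bases on the same strand. clec-38, known from axon outgrowth and not from defense, lay at 0.0654 to 0.567 CPM in TS-KO and 0.188 to 0.505 CPM in control, and no difference was detectable at this depth.

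Among the abundant genes that did not pass the test, clec-1 and clec-146 stood out by their spread. clec-1 stood at 184, 123, 252, 261 and 181 CPM in TS-KO, against 234, 174, 224, 252 and 240 CPM in control, and replicate 4 was the lowest in both strains. clec-146 ranged from 129 to 181 CPM in TS-KO and from 115 to 186 CPM in control. clec-17 averaged 145 ± 12.4 CPM in TS-KO and 167 ± 10.8 CPM in control (log2 fold change of -0.20 ± 0.07 SE, adjusted p = 0.0859). clec-65, a neighbour of clec-63, averaged 198 ± 7.39 CPM in TS-KO and 232 ± 24.4 CPM in control (log2 fold change of -0.23 ± 0.07 SE, adjusted p = 0.068). With the replicate number as a block its adjusted p was 0.0334. The block likewise added clec-48, clec-51, clec-61, clec-82, clec-160 and clec-180 to the falls (adjusted p of 0.033 to 0.047, edgeR), took none of the 27 away, and so gave 29 falls and 5 rises, against 6.05% and 4.8% of all genes (10.9% in all). DESeq2 gave 26 falls and 5 rises, against 6.73% and 4.94% of all genes (11.7% in all), and included all 27.

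C-type lectin genes lie in tandem groups, and neighbours did not always pass the test together. Differences between neighbours were not tested, and a gene that did not pass may still have changed. With a limit of 10 kb between starts, 148 of the 240 clec genes fell into 44 groups, of which 20 had at least 2 tested genes. The largest, on chromosome V (16839121 to 16869840), held 13 genes, all of them above the count rule. Of these clec-26, clec-24, clec-28 and clec-33 fell, and the last 3 lie side by side at its end. The other 9 had log2 fold changes of -0.41 (clec-32) to 0.13 (clec-37) and did not pass the test. clec-31, in the middle of the group, was lower in every TS-KO library, with 3.45 to 4.16 CPM against 4.44 to 4.94 CPM in control, but did not pass the test (adjusted p = 0.0711 by edgeR).

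The group on chromosome II (12893062 to 12906644) held clec-62, clec-63, clec-64, clec-65 and clec-66. All 5 had log2 fold changes below 0, from -0.82 (clec-66) to -0.16 (clec-62), and clec-63 and clec-66 passed the test. The group of 11 genes on chromosome IV (3922165 to 3975721) was the only one with changes in both directions, among 3 groups that held 2 or more changed genes. There clec-67 and clec-72 fell and clec-76 rose. clec-75, next to clec-76, had a log2 fold change of 0.01 ± 0.17 SE, and clec-79 on its other side 0.83 ± 0.40 SE (adjusted p = 0.988 and 0.231, edgeR). On chromosome IV (2835664 to 2855456), clec-83 fell and clec-82, which shares exon bases with Y54G2A.7 as clec-83 does, had a log2 fold change of -0.64 ± 0.18 SE (adjusted p = 0.0532 by edgeR). Their neighbours clec-84 and clec-85 had log2 fold changes of -0.08 ± 0.06 and -0.01 ± 0.06 SE. On chromosome V (14469231 to 14482317), clec-57 rose, while clec-227, clec-56, clec-54 and clec-55 lay between -0.09 and 0.35.

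Pairs of neighbours are set side by side here, again without a test of the difference between them. clec-52 rose, and clec-51 lies just beside it on chromosome IV and encodes a protein of equal length (308 amino acids). clec-51 had a log2 fold change of -0.24 ± 0.09 SE (adjusted p = 0.12 by edgeR, and 0.0345 with the replicate block). clec-4 fell while clec-8, beside it on chromosome II, averaged above the control in TS-KO with a log2 fold change of 0.23 ± 0.08 SE (adjusted p = 0.106 by edgeR). Over the family, 77 tested genes lay in a group, of which 15 fell and 4 rose with a median log2 fold change of -0.14. Of the 45 that lay alone 7 fell and 1 rose, with a median of -0.22, and of all genes tested 4.28% fell and 3.44% rose. By chromosome, falls and rises numbered 1 and 1 of 13 on I, 4 and 0 of 23 on II, 2 and 1 of 6 on III, 4 and 2 of 35 on IV, 9 and 1 of 42 on V, and 2 and 0 of 3 on X. Of all genes tested, 6.51% changed on I, 6.69% on II, 6.91% on III, 8.28% on IV, 9.43% on V and 7.82% on X.

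**Figure D4:**
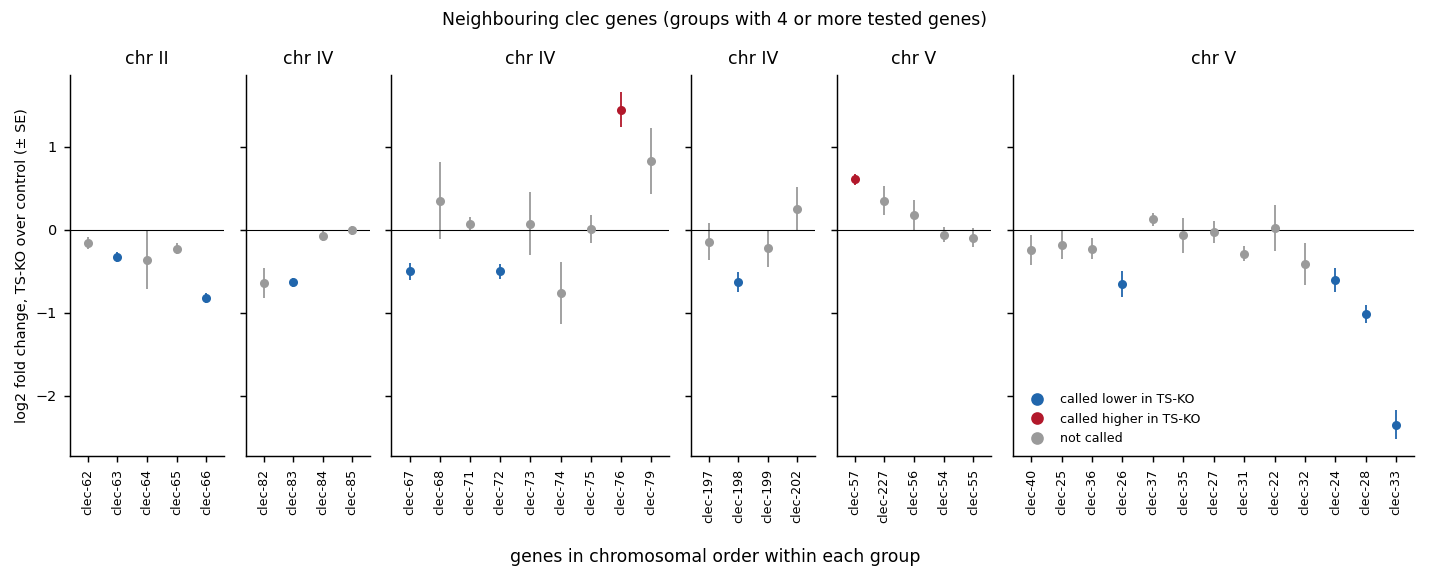
Log2 fold change of TS-KO over control, with its approximate standard error, for the tested clec genes of the 6 neighbour groups with at least 4 tested genes, drawn in chromosomal order and not to distance. Blue genes fell, red genes rose and grey genes did not pass the test, and in all 6 groups genes that changed lie beside genes that did not pass the test.

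Protein lengths were set side by side for the genes that changed and the others, without a test. The longest annotated proteins ran from 153 (clec-196) to 3514 amino acids (clec-78), with a median of 363. The median was 406.5 for the genes that fell, 362 for those that rose and 360 for the other 95.

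4 clec genes were far higher in control replicate 5 than in any other library of that strain. The hypodermal markers sqt-3, dpy-10 and dpy-7 were also far higher there than in the other control libraries, and rol-6 and dpy-13 were not. These genes were chosen after their values were seen, and the part of these markers was not tested. clec-78 stood at 9.49, 9.03, 10.8, 12.8 and 11.1 CPM in TS-KO, against 22.4, 16.7, 132, 17.9 and 10.9 CPM in control. Its log2 fold change of -1.91 ± 0.62 SE did not pass the test (adjusted p = 0.0883) and was -0.67 without that library (adjusted p = 0.0552, edgeR). clec-180 stood at 1.71, 1.88, 2.67, 2.21 and 1.81 CPM in TS-KO, against 3.63, 3.58, 16.3, 3.83 and 2.67 CPM in control. Its log2 fold change was -1.55 (adjusted p = 0.0697). Without that library it passed the test, having fallen by 0.74 on the log2 scale with an adjusted p of 0.0258, as it did with the replicate block (adjusted p = 0.033, edgeR). clec-266 reached 31.4 CPM in control replicate 5, 2.43 to 5.97 CPM in the other control libraries and 3.63 to 6.71 CPM in TS-KO. Its log2 fold change turned from -0.89 to 0.41 without that library, and it shares up to 193 exon bases with kqt-1. clec-196 reached 2.70 CPM there, 0.499 to 1.07 CPM in the other control libraries and 0.671 to 1.42 CPM in TS-KO. In the family 3.28% of genes lay at least 2-fold above their strain's median in control replicate 5, against 2.91% of all genes.

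The second question put to the family was whether levels followed the replicate number, that is, the day of culture. None of the clec genes and none of the 16817 genes passed that test (edgeR, 4 degrees of freedom, strain in the model), with a smallest adjusted p of 0.25 in the family and 0.146 over all genes. At an unadjusted p under 0.05 were 21 clec genes (17.2%), against 16.5% of all genes. Without any effect of the number, a share of about 0.05 of the genes would lie there. The shares seen were well above it, so the lack of adjusted calls does not show that levels were independent of the day. The 5 smallest unadjusted p-values were those of clec-165, clec-87, clec-67, clec-61 and clec-1. Within a strain, the SD of log2 CPM had a median of 0.243 in TS-KO and 0.244 in control for clec genes, and of 0.164 in TS-KO and 0.157 in control for all genes.

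clec-87, clec-88 and clec-91 shared a pattern over the libraries, seen after the values were known. clec-87 stood at 11.7, 25.3, 29.1, 29.7 and 20.3 CPM in TS-KO, against 26.1, 28.1, 50.1, 57.5 and 19.4 CPM in control. clec-88 ranged from 3.55 to 8.96 CPM in TS-KO and from 4.4 to 17.9 CPM in control, and clec-91 from 1.94 to 5.75 CPM in TS-KO and from 3.38 to 12 CPM in control. In all 3 genes TS-KO replicate 1 and control replicate 7 were the lowest of their strain and control replicate 6 the highest. None passed the test between the strains (adjusted p of 0.249, 0.345 and 0.304, edgeR). clec-61 had 12.4 to 23.4 CPM in TS-KO and 13.4 to 29.8 CPM in control, with replicate 1 the lowest in both strains.

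**Figure D5:**
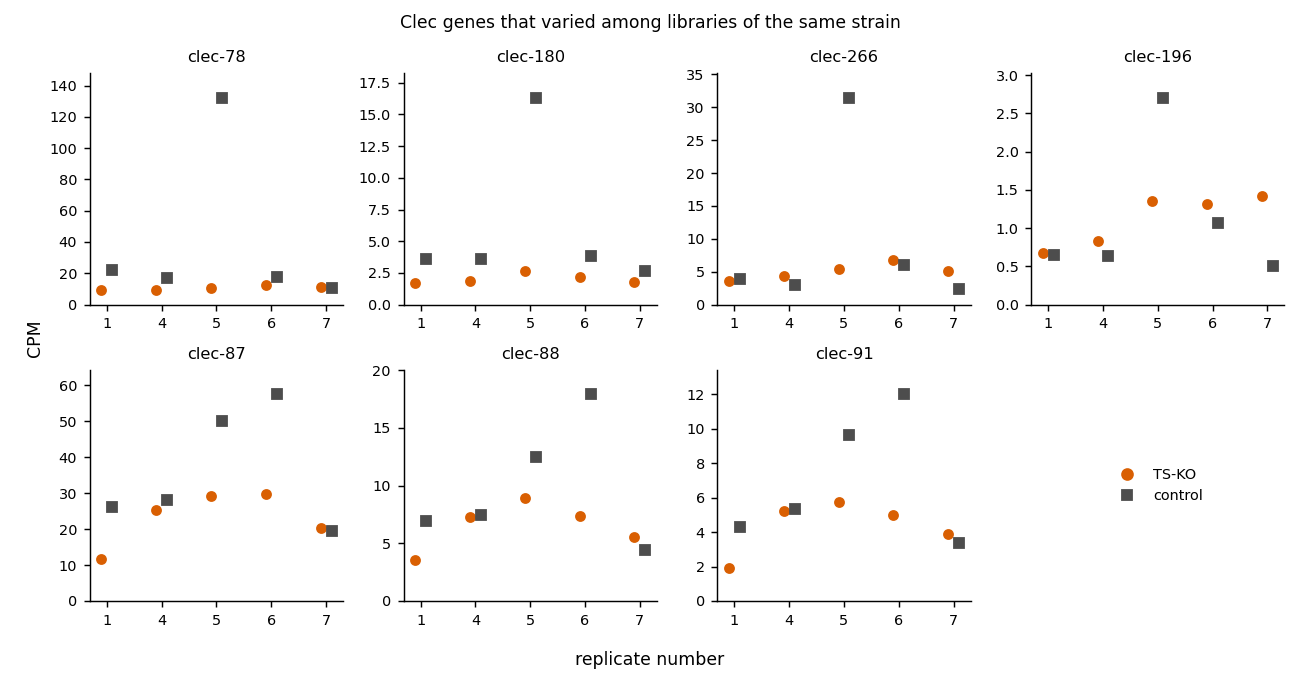
Level (CPM, from 0) of 7 clec genes in each library by replicate number, TS-KO as orange circles and control as grey squares. clec-78, clec-180, clec-266 and clec-196 are highest in control replicate 5, and clec-87, clec-88 and clec-91 in control replicate 6.

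Other gene families linked to defense or to sugar binding were read in the same way, as lists whose members were chosen with earlier results of these data known. Their counts stand beside the 4.28% of all genes that fell and the 3.44% that rose. Of 12 tested lysozyme genes 4 fell and none rose, with a median log2 fold change of -0.20. lys-7 had the smallest adjusted p, with 51.0 ± 2.61 CPM in TS-KO and 145 ± 23.2 CPM in control (log2 fold change of -1.51 ± 0.10 SE), and lys-1, lys-8 and lys-10 were the others. Without control replicate 5, lys-1 did not pass the test (adjusted p = 0.0506), and the replicate block added ilys-5 (adjusted p = 0.0106, edgeR). Of 12 galectin genes, whose products bind galactosides, 4 fell (lec-5, lec-6, lec-8 and lec-9) and none rose, with a median of -0.15. The block added falls of lec-1 and lec-10 (adjusted p = 0.0458 and 0.0319, edgeR). Of 2 tested thaumatin-like genes thn-2 fell, at 0.0457 to 0.533 CPM in TS-KO and 0.356 to 1.29 CPM in control, but not without control replicate 5 (adjusted p = 0.0713) or with the replicate block (adjusted p = 0.058, edgeR). Of 25 saposin-like genes 3 rose (spp-1, spp-11 and spp-20) and none fell, with a median of 0.05 and 11 genes below 0. With the block spp-15 fell and spp-8 rose too (adjusted p = 0.0268 and 0.0234, edgeR). Of 8 CUB-like response genes 3 fell (F55G11.4, F55G11.8 and dod-19) and irg-4 and irg-5 rose, with a median of -0.24. F55G11.4 averaged 2.04 ± 0.250 CPM in TS-KO and 13.7 ± 3.39 CPM in control, and irg-4 did not pass the test without control replicate 5 (adjusted p = 0.0843, edgeR). With the block F55G11.8 did not pass (adjusted p = 0.0629, edgeR).

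Of 25 genes of immune signaling 1 passed the test, or 4% against 7.72% of all genes, with a median log2 fold change of 0.02 over the list. It was sek-1, the kinase kinase upstream of the p38 kinase PMK-1, with 244 ± 15.4 CPM in TS-KO and 207 ± 17.6 CPM in control (log2 fold change of 0.24 ± 0.07 SE, adjusted p = 0.0456). Without control replicate 5 its adjusted p was 0.104 (edgeR).

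Several clec genes are expressed in the intestine, whose markers were read beside them. Of 10 intestinal markers 4 rose (ifb-2, vha-6, asp-1 and inx-16), none fell, and none was at 0. Of all genes tested 3.44% rose and 4.28% fell, the shares to set beside each marker list. Without control replicate 5, asp-1 did not pass the test (adjusted p = 0.0702, edgeR). The summed level of the 10 was 8917 to 9558 CPM in TS-KO and 7475 to 8084 CPM in control, without overlap. asp-1 made up 56.4% to 64.2% of it in each library, and without asp-1 the sum was 3513 to 3776 CPM in TS-KO and 2885 to 3260 CPM in control. The means of 3 markers lay lower in TS-KO and did not pass the test: ges-1 (log2 fold change of -0.24), ifc-2 (-0.16) and act-5 (-0.40). Of 5 body wall muscle markers mup-2 and lev-11 fell and none rose, with sums of 16695 to 20245 CPM in TS-KO and 18860 to 19981 CPM in control. Of 4 germline markers glh-1 rose, and no marker of hypodermis, pharyngeal muscle, pharyngeal gland, neurons, coelomocytes or adult yolk and sperm passed the test. With the block myo-2 of pharyngeal muscle fell and pgl-1 of the germline rose (adjusted p = 0.0413 and 0.0398, edgeR). Of all genes, 6.05% fell and 4.8% rose with the block. The part of these markers in the clec results was not tested.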

How the data were processed

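Whole early L1 larvae of 2 strains were measured by polyA RNA-seq, with 5 libraries each, grouped by the strain in the sample labels. The authors aligned the reads with STAR 2.5.2b and deposited raw counts of reads per gene from featureCounts (Subread 1.5.2), for 46756 genes. Gene symbols, positions, exons and protein lengths came from Ensembl annotation 115 (WBcel235), which held 46581 of these genes. The symbols clec-15, clec-209 and clec-249 stand on 2 gene IDs each. Only reads with a unique place were counted, so near-identical copies may be undercounted. The strand setting and the handling of reads that lie in exons of more than 1 gene are not given in the sources used here. Of the 124 clec genes, 24 overlap another gene in exons, some on the same strand. Their reads may be shared with that gene or left out.

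Counts were tested with edgeR 4.0.16 in R 4.3.3 (filterByExpr, TMM, quasi-likelihood test without a block, Benjamini-Hochberg adjustment over 16817 genes). The standard error of a log2 fold change was derived from the test statistic and is approximate. CPM used TMM library sizes, with a prior count of 2 on the log2 scale. The effect of the replicate number was tested as 4 terms beside strain. The method was tested on simulated data. Python 3.11.15, pandas 2.3.3 and matplotlib 3.10.9 made tables and figures.

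Libraries with 1 number were reared and collected in parallel, on a different day for each number, so the numbers pair the strains. The main test did not use this pairing. Its p-values set the strain difference against the spread among libraries of a strain, which includes the spread between days. The replicate block takes the differences between numbers out, so its p-values measure the spread that remains. Deviations from the strain means correlated at 0.505, 0.283, 0.124, -0.05 and 0.351 for replicates 1, 4, 5, 6 and 7. Pairs of libraries that differ in number had a median of -0.10. Deviations from a strain mean cancel out within the strain, which lowers the correlations between different numbers. That median is therefore no independent baseline. No 2 libraries of a strain agreed within sampling noise. Alternatives were DESeq2 1.42.0, limma 3.58.1 (voom with sample weights), RLE scaling, other filters, a replicate block, and leaving out each library or pair.

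The members and the lists were chosen with earlier results of these data known. Genes were named if they were among the 15 largest falls or 10 largest rises with 1 direction in 5 pairs, among the 5 most abundant, of known role, at the edge of the count rule, among the 5 smallest p-values for the replicate number, within 10 kb of a changed gene, changed by the block or by leaving out control replicate 5, or called in a family list. The remaining changed genes, the genes without overlap, the genes high in control replicate 5, clec-87, clec-88, clec-91, clec-75, clec-146 and the genes of the neighbour groups that this did not cover were named after their values were seen. Sequence features were planned and are not reported.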

Additional observations from a re-analysis of the deposited data

Results flagged for a closer look

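In 108 groups of 5 libraries, that is, 54 named clec genes in each strain, the highest or lowest library was compared with the other 4 by the size of its gap relative to the range, and 10 groups had a library that stood apart. Chance alone gives about 1 in 20 such groups, but the genes include 4 that were named because of their values in control replicate 5, so the count cannot be read against that share.

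4 of the 10 were control replicate 5, which stood highest at 132 CPM for clec-78, 16.3 CPM for clec-180, 31.4 CPM for clec-266 and 2.70 CPM for clec-196. The summed hypodermal markers of that library were 839 CPM, against 105 to 239 CPM in the rest of that strain, with sqt-3, dpy-10 and dpy-7 far above the rest, lin-26 slightly above, and rol-6 and dpy-13 within it. Their part in these values was not tested.

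The other 6 were spread over 5 libraries. In TS-KO, replicate 1 was highest for clec-52 (15.3 CPM) and clec-160 (7.31 CPM), and replicate 7 was highest for clec-82 (8.73 CPM). In control, replicate 4 was lowest for clec-67 (43.8 CPM), replicate 1 was highest for clec-89 (6.71 CPM), and replicate 6 was highest for clec-150 (92.2 CPM).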

How the results depend on the processing

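Over 54 named results and 1177 values under alternatives, 1046 kept their direction and their side of the threshold, 63 kept the direction but no longer passed, 32 newly passed and 36 turned their direction. Of the 27 changed clec genes 15 passed the test under all alternatives, the 15 fits without libraries among them. limma-voom called 41 clec genes, 9 of them higher, and 2899 of all genes, and DESeq2 called 1958 of all genes, and the cause was not tested. With the replicate block edgeR called 34 clec genes and 1826 of all genes, took away no clec call and added 7. With the block in DESeq2 the counts were 33 and 1856. The number of genes that passed the test for the replicate number was 0 under each alternative run.

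Without 1 library or 1 pair, the clec genes called numbered 16 to 29, of which 12 to 23 fell, those over all genes numbered 408 to 1204, and the median log2 fold change of the clec genes was -0.19 to -0.11. The lowest counts came without both libraries of replicate 6. Leaving out a pair ended the calls of clec-26 and clec-115 in 5 of 5 fits. Those of clec-24, clec-50 and clec-86 ended in 4 of 5 fits, and that of clec-4 in 3. The adjusted p then reached 0.142 for clec-86, 0.127 for clec-24 and 0.121 for clec-115 (edgeR). It also ended the calls of clec-5, clec-63, clec-67, clec-72, clec-89 and clec-198 in 1 to 3 of 5 fits.

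Turned directions were in genes near 0, with 1 high library, or with low and scattered counts, such as clec-38. Under limma-voom the log2 fold changes were 0.019 for clec-1, 0.22 for clec-20, 0.27 for clec-38, -0.17 for clec-261 and 0.22 for clec-266. Without libraries they ran from -0.28 to 0.66 for clec-196, -0.23 to 0.091 for clec-20, -0.11 to 0.26 for clec-261, -1.13 to 0.41 for clec-266, -0.74 to 0.096 for clec-38 and -0.036 to 0.025 for clec-85. Depth limits the lowest genes, where 10 counts stand for a small part of a CPM.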
